A study of Mus musculus with 2 samples.

Results

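Cation channel subunits were followed in mouse embryonic stem (ES) cells of the line R1 and in their neural derivatives. The members were all gene probes of the array whose gene name starts with Kcn (potassium channels), Cacna, Cacnb or Cacng (calcium channels), or is Scn with a number and a or b (voltage-gated sodium channels). That rule found 193 probes of 121 genes, out of 41174 gene probes on the array. One of the 121, Kcnq1ot1, is a long noncoding RNA gene that fits the name only. The first group was 1 array of embryoid body (EB) cells at day 6 of direct neural differentiation, which the labels also describe as neural precursors. The second was 1 array of undifferentiated ES cells at day 0. The ES cells had been kept on inactivated fibroblast feeders, in DMEM that held leukaemia inhibitory factor at 1000 U/ml and 15% serum. Both groups come from a single cell line, and the sources used here do not say whether or how feeders were removed before the RNA was taken. Nor do they state the medium of the day 6 cells, so medium, feeders, aggregation and differentiation cannot be told apart.

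Voltage-gated channels open and close with the membrane potential and shape the electrical signals of nerve and muscle cells. Sodium channels carry the upstroke of the action potential, calcium channels link depolarisation to calcium entry, and potassium channels set the resting potential and end the spike. A pore-forming alpha subunit carries the ion, and auxiliary subunits (beta, gamma, alpha2delta, the KCNE peptides, the Kv beta subunits and the calcium-binding KChIP proteins) change its traffic and gating. In neural tissue, progenitors have mostly potassium and T-type calcium currents, and sodium currents grow as neurons mature.

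Values are Agilent processed intensities, and a difference is log2 of day 6 over day 0 after each array was scaled to its 75th percentile (4388 intensity units on day 6 and 3758 on day 0), so a fold is a little smaller than the plain ratio of 2 intensities given beside it when day 6 is higher. A gene was called measured when at least 1 array had a probe of it well above background, and its brightest such probe was used. Of 41174 gene probes, 65.5% were well above background on day 6 and 61.5% on day 0. The SD given after ± is the error estimated by the scanner software, with 1 array in each group. No test between the groups was possible, and no difference below has a replicate check. In these bulk samples, a change in the share of a cell type and a change in RNA per cell cannot be told apart. All 7 pluripotency markers were lower on day 6 by 2-fold or more, with a summed intensity of 31551 on day 6 and 1064811 on day 0. Of 7 neural progenitor markers 4 were higher and 0 lower, with a summed intensity of 372604 on day 6 and 104296 on day 0, and 7 of 9 neuron markers were higher by as much, with a summed neuron marker intensity of 273885 on day 6 and 45951 on day 0. Of 8 feeder fibroblast markers, 5 were lower by 2-fold or more, with a summed intensity of 26558 on day 6 and 124804 on day 0. On day 6 Lox was not well above background (43.4), and Col3a1, Postn and Pdgfrb were within 2-fold.

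Of the 121 channel genes, 84 were measured (69.4%, against 76.9% of all genes on the array). Of these, 25 were higher on day 6 by 2-fold or more, and 14 were lower by as much. Among all 14966 measured genes, 17.8% were that much higher and 20.1% that much lower. At 4-fold, 12 channel genes were higher and 5 lower, against 7.35% and 8.34% of all genes. The median difference of the measured channel genes was 0.16 log2 units, and that of all genes was -0.09. Many channel genes were measured on 1 array only, and for these the difference is a bound: 24 were well above background on day 6 alone and 7 on day 0 alone, or 28.6% and 8.33% of those measured, against 7.98% and 5.37% of all measured genes. The other 53 were measured on both arrays. Of these, 16 passed 2-fold as higher on day 6 (30.2%, against 16.4% of all genes measured on both arrays) and 11 as lower (20.8%, against 18.0%). The 25 higher genes had day 6 intensities from 244 to 6787 with a median of 732, and day 0 intensities from 21.1 to 1093 with a median of 153. The 14 lower genes had day 6 intensities from 17.5 to 5873 with a median of 261, and day 0 intensities from 196 to 17904 with a median of 664.

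**Figure D1:**
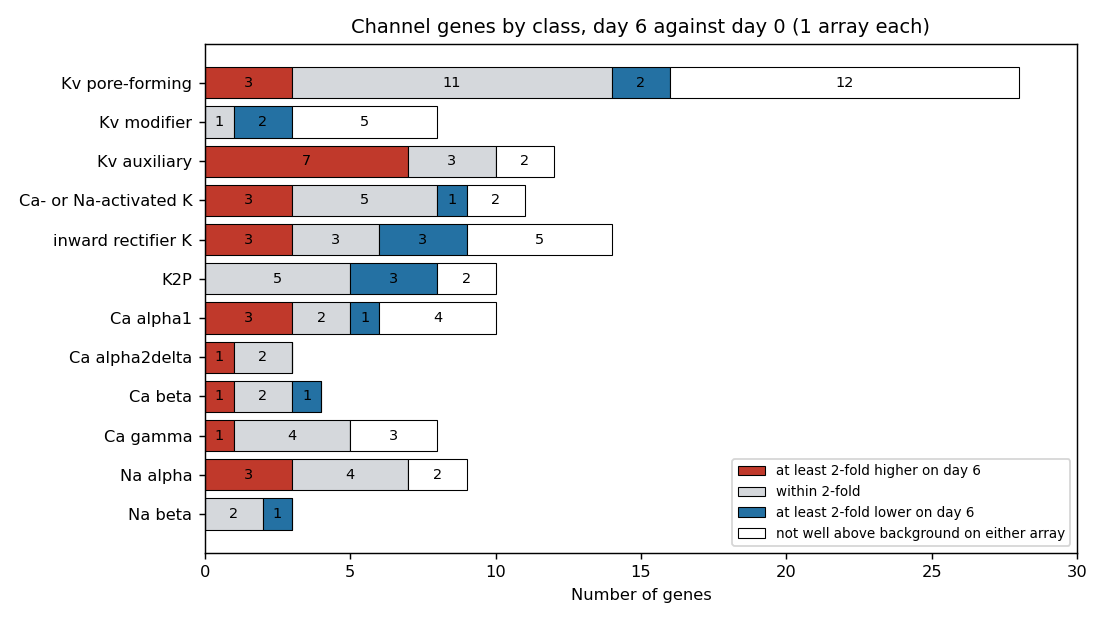
Number of channel genes in each class that were at least 2-fold higher on day 6, within 2-fold, at least 2-fold lower on day 6, or not well above background on either array. The Kv auxiliary class holds 7 higher genes and 0 lower ones, and the K2P (tandem-pore) class holds 3 lower and 0 higher. Kcnk9 and Kcnk10, which lie outside the naming rule, are not counted.

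**Figure D2:**
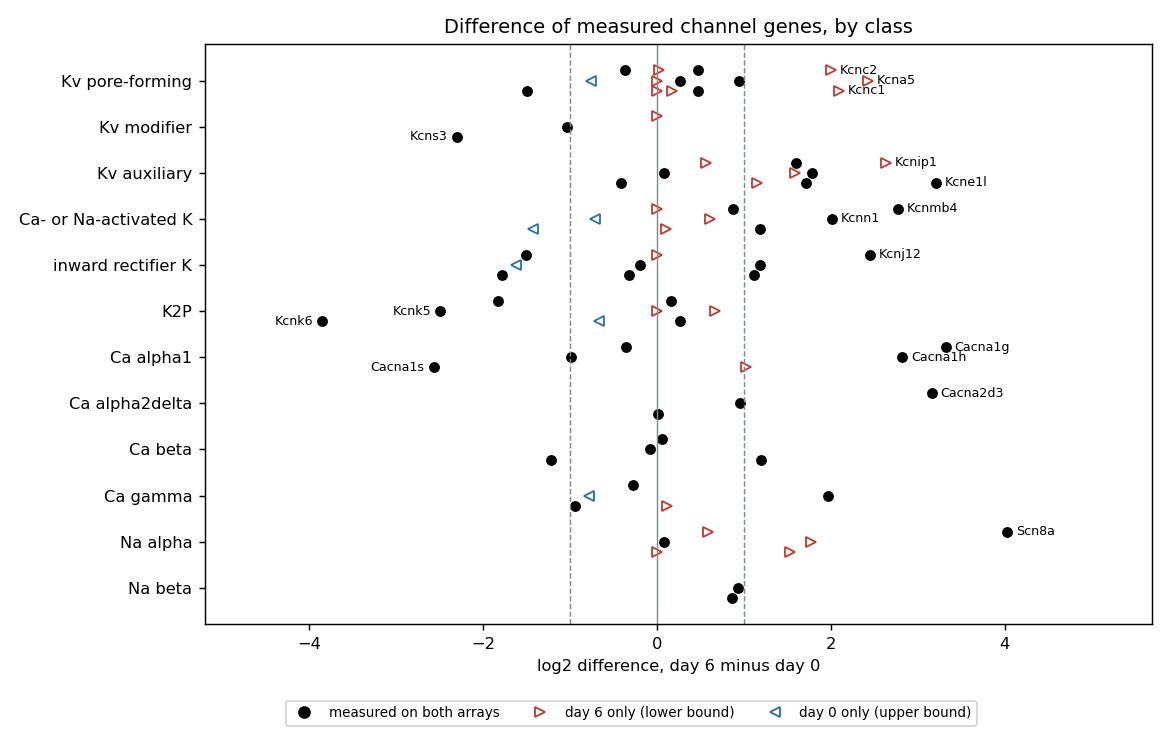
The log2 difference, day 6 minus day 0, of measured genes by class (1 array for each day, with a few members not drawn). Filled points were measured on both arrays, open triangles are bounds for genes measured on 1 array, dashed lines mark 2-fold, and genes at least 4-fold apart are named. Scn8a lies farthest to the right at 4.03 and Kcnk6 farthest to the left at -3.85.

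Among the sodium channel alpha subunits, 3 of 7 measured genes passed 2-fold as higher on day 6 and 0 as lower. The class median was 0.59 log2 units with dim members at their bound, beside -0.09 for all genes. Scn8a, an alpha subunit concentrated at the axon initial segment and nodes of Ranvier of mature neurons, reached 6787 intensity units on day 6, against 357 on day 0. That is a log2 difference of 4.03 ± 0.22, or 16.3-fold higher, and it exceeded 98.7% of all measured genes. It rests on 1 probe for a cDNA clone: the RefSeq probe gave a bound of 0.00, and the mean of both probes, with that bound in it, was at least 2.01. Its probe, for accession AK083250, lies on chromosome 15 from 101026891 to 101026950 of the mm7 build. Scn1a, which carries much of the sodium current of inhibitory interneurons, had 407 on day 6 and 37.5 on day 0, where it was not well above background. It was at least 3.41-fold higher by this probe. The other Scn1a probe was not well above background on either array (22.2 on day 6 and 27.4 on day 0). Scn3a, the alpha subunit typical of the embryonic brain, had 346 on day 6 and 27.8 on day 0 and so was at least 2.90-fold higher. It fell short of 2-fold with normexp, without background subtraction and by the mean of its probes (0.93, 0.83 and 0.77), and its other measured probe gave no fold. All 3 of these are subunits of central neurons. The skeletal muscle subunit Scn4a had 306 on day 6 and 248 on day 0 (0.08 ± 0.25) and did not reach 2-fold. Scn10a and Scn11a, subunits of sensory neurons, were well above background on day 6 only, at 101 and 179.6, too dim for a 2-fold bound. Scn7a and Scn9a were not well above the background of either array.

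The sodium channel beta subunits, single-pass membrane proteins that bind the alpha subunits, had 3 measured genes. Scn3b had 6240 on day 6 and 2808 on day 0, for a log2 difference of 0.93 ± 0.20 (1.90-fold), and Scn2b had 626 on day 6 and 296 on day 0, 0.86 ± 0.25. Both lay just short of 2-fold. The class median was 0.86 log2 units over 3 genes.

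Of 6 measured pore subunits of calcium channels, 3 passed 2-fold as higher on day 6 and 1 as lower. Both measured T-type genes, whose channels open at low voltage, were over 4-fold higher on day 6 by their brightest probes, and of the L-type pair 1 gene was higher, at the threshold, and 1 lower. Cacna1g had 3581 on day 6 and 308 on day 0, for a log2 difference of 3.32 ± 0.23 (9.96-fold higher). Its probe, for NM_009783, lies on chromosome 11 from 94517588 to 94517647 (mm7). Cacna1h had 1080 on day 6 and 131 on day 0, for a log2 difference of 2.82 ± 0.32 (7.08-fold higher). Averaged over their measured probes, the differences were at least 2.24 for Cacna1g and 1.46 for Cacna1h. These are minimum values, because 1 probe of each gene was measured on day 6 only and entered as a bound. The remaining T-type gene, Cacna1i, was not well above background on either array. Among L-type genes, Cacna1s, the voltage sensor of skeletal muscle contraction, had 121 on day 6 and 617 on day 0, for a log2 difference of -2.57 ± 0.32 (5.94-fold lower). The other Cacna1s probe was not well above background on either array (23.5 on day 6 and 22.7 on day 0). Of 7 cardiac and skeletal muscle markers, 6 were measured, with 1 at least 2-fold higher (Myh7, 18277 on day 6 and 1340 on day 0). Another 3 were at least 2-fold lower (Acta1 at -3.1, Actc1 at -2.07 and Nkx2-5 at -1.7). The summed intensity of the 6 markers was 22773 on day 6, most of it from Myh7, and 18684 on day 0. Their part in the Cacna1s difference was not tested. Cacna1c, the L-type subunit of heart and neurons, had 244 on day 6 and 21.1 on day 0. Its bound of at least 2.04-fold higher lies at the threshold and fell short of 2-fold under 6 of 8 other settings. The presynaptic subunits did not reach 2-fold by their brightest probes. Cacna1b (N-type) had 596 on day 6 and 1014 on day 0 (-0.99 ± 0.21), just inside the threshold. The other Cacna1b probe gave a bound of -1.06, past it. Cacna1a (P/Q-type) had 213 on day 6 and 234 on day 0 (-0.36 ± 0.27). Cacna1d, Cacna1e and Cacna1f were not well above the background of either array. The alpha1 median was 0.34 log2 units over 6 genes. It stood at -0.36 over the 5 measured on both arrays and at -0.22 in the authors' value table, so it gives no direction for the class.

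Among the auxiliary calcium channel subunits, Cacna2d3 had the largest difference by the brightest probe of each gene. Cacna2d3, an extracellular alpha2delta subunit that raises the number of channels at the cell surface, had 1595 on day 6 and 153 on day 0, for a log2 difference of 3.16 ± 0.28 (8.92-fold higher). Cacna2d1, the target of gabapentin, had 3849 on day 6 and 1696 on day 0 (0.96 ± 0.20), and Cacna2d2 had 16301 on day 6 and 13825 on day 0 (0.01 ± 0.20). Another Cacna2d2 probe measured on both arrays gave 2.14 ± 0.25, and the mean of its probes gave 1.08, past 2-fold. The alpha2delta median was 0.96 over 3 genes. The cytoplasmic beta subunits went both ways, with a median of -0.01. Cacnb2 had 347 on day 6 and 129 on day 0 (1.20 ± 0.34), and Cacnb1, the partner of Cacna1s in skeletal muscle, had 329.6 on day 6 and 655 on day 0 (-1.22 ± 0.22). Cacnb3 had 2710 on day 6 and 2452 on day 0 (-0.08 ± 0.20), and Cacnb4 gave 0.06 ± 0.24 by its brightest probe but bounds of 1.98 and 3.04 by its other measured probes. Cacnb2 fell short of 2-fold with normexp (0.82) and without background subtraction (0.74). The gamma family includes the transmembrane AMPA receptor regulatory proteins (TARPs), which carry glutamate receptors to synapses. Its member Cacng4 had 732 on day 6 and 160.4 on day 0, for a log2 difference of 1.97 ± 0.28 (3.91-fold higher). Cacng2 (stargazin) was barely above background on day 6, at 129.8, and had 96.3 on day 0. Cacng7 had 463 on day 6 and 481 on day 0 (-0.28 ± 0.22), Cacng8 gave -0.94 ± 0.39, and Cacng6 was well above background on day 0 only, at 126. Cacng1, Cacng3 and Cacng5 were not measured, and the gamma median was -0.28 over 5 genes.

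Of the pore-forming voltage-gated potassium (Kv) channels, 12 of 28 genes were not well above the background of either array, and the 3 that were over 4-fold higher on day 6 were all not well above background on day 0. Kcna5, a delayed rectifier best known from the atrium, had 642 on day 6 and 21.6 on day 0 and so was at least 5.38-fold higher. Kcnc1, a fast delayed rectifier of fast-spiking neurons, had 508 on day 6 and 23.4 on day 0 and so was at least 4.25-fold higher. Its relative Kcnc2 had 479 on day 6 and 47.8 on day 0, at least 4.01-fold higher by this probe. Its other probes were too dim to be called measured (67.6 and 18.3 on day 6, 73.5 and 22.7 on day 0). The log2 bounds of Kcnc1 and Kcnc2 fell below 4-fold with normexp (1.44 and 1.49) and without background subtraction (1.32 and 1.38). So they did with median scaling (1.97 and 1.89) and in the authors' value table (1.9 and 1.82). Kcna5 fell below 4-fold with normexp (1.84) and without background subtraction (1.7). All 3 stayed past 2-fold there. On the other side, Kcnh8, of the ELK group, had 279 on day 6 and 672 on day 0 (-1.49 ± 0.23, 2.81-fold lower). The ERG channel gene Kcnh2, which repolarises the heart, had 1278 on day 6 and 789.9 on day 0 (0.47 ± 0.21). Kcnq1, the partner of Kcne1 in heart and epithelia, had 740.3 on day 6 and 331 on day 0 (0.94 ± 0.23). Neither reached 2-fold. Kcnq3, a subunit of the M-current that steadies neuronal firing, had 501 on day 6 and 310.4 on day 0 (0.47 ± 0.23). Kcna1 had 157 on day 6 and 174 on day 0 (-0.37 ± 0.32). The A-type gene Kcnd2 was barely above background on day 6 (89.7) and had 21.2 on day 0. Kcna7 stood at 0.27 ± 0.24, Kcnc4, Kcnd3 and Kcnh5 were measured on day 6 only with bounds from 0.00 to 0.17, and Kcnh1 on day 0 only with a bound of -0.76. The median of the 16 measured pore-forming Kv genes was 0.22. The unmeasured genes included Kcna2, Kcna3, Kcna4, Kcna6, Kcnb2, Kcnd1, Kcnh3, Kcnh6, Kcnh7 and Kcnq5.

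The Kv modifier genes encode alpha subunits that form no channel alone and alter Kv2 channels. Of 8 such genes, 3 were measured and 2 passed 2-fold as lower on day 6. Kcns3 had 243 on day 6 and 1029 on day 0, for a log2 difference of -2.30 ± 0.23 (4.94-fold lower). Kcnf1 had 144 on day 6 and 251 on day 0, and its difference of -1.03 ± 0.29 lies at the threshold and stood at -0.72 without background subtraction. Kcns1 was measured on day 6 only (111) with no 2-fold bound. Kcng3, Kcng4, Kcns2, Kcnv1 and Kcnv2 were not well above background.

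The auxiliary subunits of Kv channels were the class with the largest share of higher genes: 7 of its 10 measured genes passed 2-fold as higher on day 6 and 0 as lower, with a median of 1.59 log2 units. Of the 7, 3 (Kcne1, Kcnip1 and Kcnip4) were measured on day 6 alone. Over the genes measured on both arrays it was 4 of 6. Kcne1 and Kcnip4 fell short of 2-fold with normexp and without background subtraction, where the class median was 1.03 and 0.96. All 3 of its families took part. Kcne1l (also called Kcne5), a KCNE peptide that slows or silences Kv channels, had 3870 on day 6 and 359 on day 0, for a log2 difference of 3.21 ± 0.23 (9.23-fold higher). Its probe, for NM_021487, lies on chromosome X from 136969138 to 136969197 (mm7). Kcne1, the minK subunit, had 265 on day 6 and 27.7 on day 0, at least 2.22-fold higher, and Kcne3 was measured on day 6 only with a bound of 0.57. The KChIP genes encode calcium sensors that bind Kv4 channels. Kcnip1 had 738 on day 6 and 22.2 on day 0, at least 6.18-fold higher. Kcnip3, whose product is also called DREAM or calsenilin, had 2069 on day 6 and 543 on day 0 (1.71 ± 0.21, 3.26-fold higher). Kcnip4 had 359.8 on day 6 and 27.2 on day 0, at least 3.01-fold higher, while Kcnip2 gave 0.08 ± 0.39. Of the Kv beta genes, whose products bind Kv1 channels and resemble aldo-keto reductases, Kcnab2 had 608 on day 6 and 152 on day 0 (1.78 ± 0.29) and Kcnab3 had 638 on day 6 and 181 on day 0 (1.60 ± 0.29). Kcnab1 had 688 on day 6 and 784 on day 0 (-0.41 ± 0.21). Kcne2 and Kcne4 were not measured.

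Over all auxiliary subunits of potassium, calcium and sodium channels, 11 of 27 measured genes passed 2-fold as higher on day 6 and 2 as lower, with a median of 0.86. Pore-forming genes, with the Kv modifiers counted among them, had 14 of 56 higher and 12 lower, with a median of 0.10. The modifiers gave 0 of the higher genes and 2 of the lower ones. Of the 11 higher auxiliary genes, 7 were of the Kv auxiliary class. The others were Kcnmb4, Cacna2d3, Cacnb2 and Cacng4, so most of the higher auxiliary genes came from 1 class. Among all measured genes, 17.8% were at least 2-fold higher and 20.1% lower. Of the auxiliary genes 6 of 33 were not measured, and of the pore-forming genes 31 of 87, 5 of them modifiers. These counts describe 1 array for each day, and the difference between the 2 kinds of subunit was not tested.

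Potassium channels gated by calcium or sodium were higher on day 6 in 3 of 9 measured genes and lower in 1, with a median of 0.61. Kcnmb4, the neuronal beta subunit of the large-conductance (BK) channel, had 5423 on day 6 and 679.7 on day 0, for a log2 difference of 2.77 ± 0.21 (6.83-fold higher). Its pore gene Kcnma1 had 17.0 on day 6, not well above background, and 119 on day 0, and it had 1 probe. The bound for Kcnma1 was -0.71 (at least 1.64-fold lower), short of 2-fold. Kcnn1, a small-conductance (SK) channel behind the afterhyperpolarisation of neurons, had 2085 on day 6 and 442 on day 0 (2.01 ± 0.22, 4.04-fold higher). Kcnn2, another SK gene, had 2936 on day 6 and 1375 on day 0, for a log2 difference of 0.87 ± 0.07 (1.83-fold), with 9 spots of this probe on each array whose log2 SD was 0.06 on day 6 and 0.08 on day 0. The intermediate-conductance gene Kcnn4, known from blood cells and fibroblasts, had 58.8 on day 6, not well above background, and 196 on day 0, at least 2.69-fold lower, a call lost without background subtraction. The sodium-activated channel gene Kcnt2 had 489 on day 6 and 184 on day 0 (1.18 ± 0.27), short of 2-fold with normexp (0.84) and without background subtraction (0.80). Kcnt1, Kcnu1 and Kcnmb2 were measured on day 6 only with bounds of 0.11, 0.61 and 0.00. Kcnn3 and Kcnmb1 were not measured.

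The inward rectifiers (Kir channels), which pass potassium more easily into the cell and hold the resting potential, were split: 3 of 9 measured genes passed 2-fold as higher on day 6 and 3 as lower, with a median of -0.19. Kcnj12, a strong rectifier of the Kir2 group, had 1230 on day 6 and 193 on day 0, for a log2 difference of 2.45 ± 0.26 (5.46-fold higher). Kcnj4, of the same group, had 2782 on day 6 and 1093 on day 0 (1.12 ± 0.21, and 0.83 by the mean of its probes), and Kcnj10, the channel by which glia take up potassium, had 2216 on day 6 and 830.4 on day 0 (1.19 ± 0.21). Of 4 measured glia markers 3 were at least 2-fold higher, with a summed intensity of 10538 on day 6 and 3172 on day 0, and Gfap was not measured. Their part in the Kcnj10 difference was not tested. On the other side, Kcnj14, also of the Kir2 group, had 153 on day 6 and 449 on day 0 (-1.78 ± 0.27, 3.43-fold lower). Kcnj3, a G protein-gated channel of heart and neurons, had 352 on day 6 and 859 on day 0 (-1.51 ± 0.22, 2.85-fold lower). Kcnj8, the pore of ATP-sensitive channels in vascular smooth muscle, had 17.5 on day 6, not well above background, and 225 on day 0, at least 3.08-fold lower. The other Kcnj8 probe was not well above background on either array (17.2 on day 6 and 20.6 on day 0). Of 4 smooth muscle markers, Myh11 was not measured. The 3 measured ones (Acta2, Tagln and Cnn1) were at least 2-fold lower, with a summed intensity of 80897 on day 6 and 324582 on day 0. Their part was not tested. Kcnj9 stood at -0.32 ± 0.33 by its brightest probe, and its other probe gave a bound of -1.24. Kcnj15 stood at -0.19 ± 0.30, and Kcnj2 was measured on day 6 only (100.4). Kcnj11, the ATP-sensitive pore of pancreatic beta cells, was not well above background, with 63.1 on day 6 and 24.2 on day 0, nor were Kcnj1, Kcnj5, Kcnj6 and Kcnj16.

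K2P channels, whose subunits each carry a pair of pore loops, make the background leak of potassium. No member of this class that the naming rule found was at least 2-fold higher on day 6. Of its 8 measured genes 3 were lower, with a median of -0.33 (-1.83 over the 5 measured on both arrays). Kcnk9 and Kcnk10, K2P genes listed under older names and so outside the rule, were at least 12.3-fold and 2.65-fold higher. Kcnk6 had 357 on day 6 and 4403 on day 0, for a log2 difference of -3.85 ± 0.22 (14.4-fold lower), below all but 2.09% of measured genes. Its probe lies on chromosome 7. Kcnk5, an alkaline-activated channel of kidney epithelium, had 446 on day 6 and 2141 on day 0 (-2.49 ± 0.21, 5.60-fold lower). Kcnk1 (TWIK-1) had 5873 on day 6 and 17904 on day 0 (-1.83 ± 0.20, 3.56-fold lower). These 3 genes were measured on both arrays, and beside them 5 of 8 feeder fibroblast and 7 of 7 pluripotency markers were lower on day 6. Whether ES cells or feeders gave their day 0 signal was not tested. Kcnk13 gave 0.16 ± 0.21 and Kcnk3 0.26 ± 0.33. The mechanosensitive gene Kcnk2 had 111 on day 6 and, not well above background, 75.5 on day 0. Kcnk7 was measured on day 6 only and Kcnk12 on day 0 only, and Kcnk4 and Kcnk16 on neither. The noncoding Kcnq1ot1, which silences imprinted genes near Kcnq1, had 8045 on day 6 and 4274 on day 0 (0.69 ± 0.20).

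**Figure D3:**
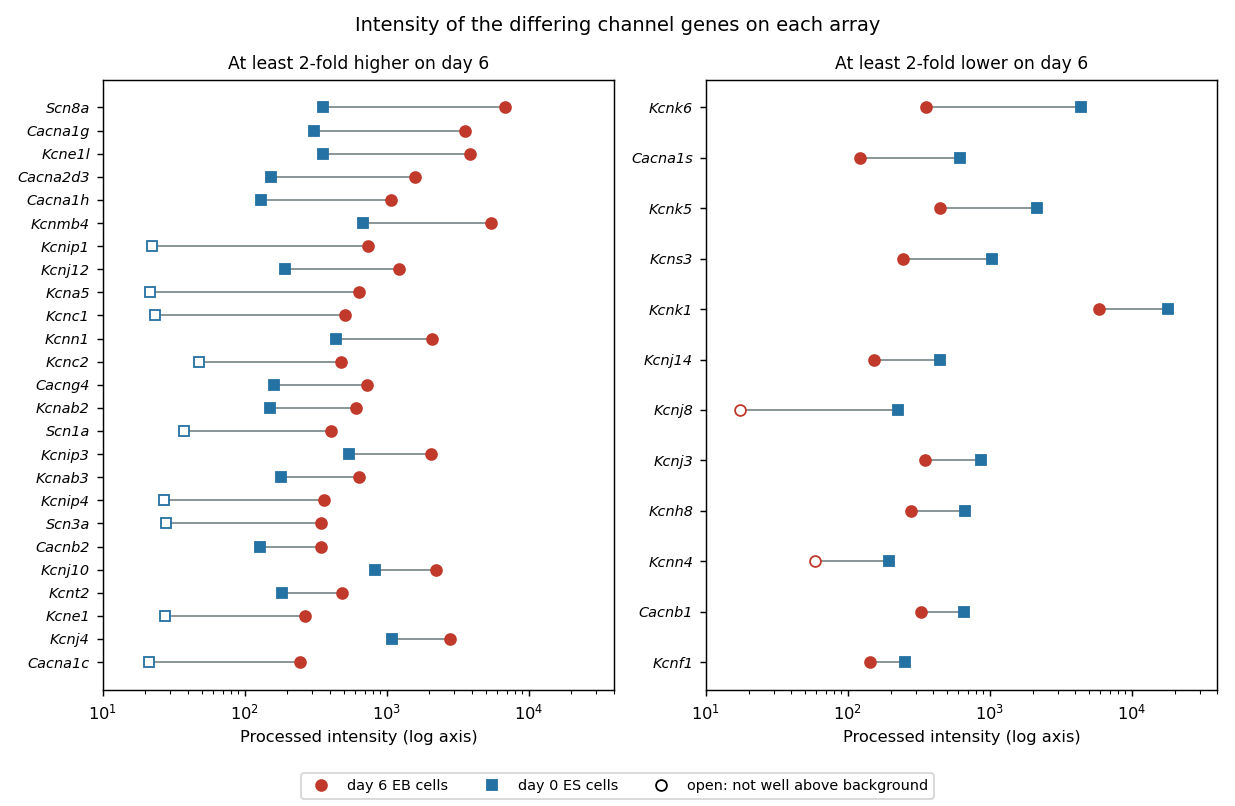
Processed intensity (log axis) of the 25 channel genes at least 2-fold higher on day 6 and of 12 of the 14 at least 2-fold lower, with day 6 EB cells as circles and day 0 ES cells as squares (1 array each). Open symbols were not well above background. Of the 25 higher genes, 9 have an open day 0 symbol, and of the 12 lower genes drawn, 2 have an open day 6 symbol.

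Promoter sequences of the members were taken from RefSeq (GRCm38.p6) as 300 bases, 250 before and 50 after a gene's start, with the first listed start used. A sequence matched 90 of the 121 members. The promoters of the first higher and lower genes in order of size, among those measured on both arrays with a sequence, are shown to let their base composition be seen beside the values. Capitals mark the CpG dinucleotides. Scn8a (chr15:100870395-100870694, plus strand) held 38 and Kcne1l (chrX:142306149-142306448, minus strand) 12, among higher genes. Kcnk5 (chr14:20181733-20182032, minus strand) held 26 and Cacna1s (chr1:136052561-136052860, plus strand) 9, among lower genes.
Scn8a: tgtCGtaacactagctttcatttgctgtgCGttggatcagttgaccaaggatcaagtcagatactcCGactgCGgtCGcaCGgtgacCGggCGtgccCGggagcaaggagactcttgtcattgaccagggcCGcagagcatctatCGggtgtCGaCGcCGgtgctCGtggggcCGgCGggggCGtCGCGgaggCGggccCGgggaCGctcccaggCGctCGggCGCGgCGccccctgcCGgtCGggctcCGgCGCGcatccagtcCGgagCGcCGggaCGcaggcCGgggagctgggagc
Kcne1l: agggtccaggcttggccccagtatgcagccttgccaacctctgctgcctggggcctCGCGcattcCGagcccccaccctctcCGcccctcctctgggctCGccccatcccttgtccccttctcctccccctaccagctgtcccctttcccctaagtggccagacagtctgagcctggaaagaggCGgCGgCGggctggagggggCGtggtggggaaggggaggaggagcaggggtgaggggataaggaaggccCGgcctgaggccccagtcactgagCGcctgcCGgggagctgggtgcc
Kcnk5: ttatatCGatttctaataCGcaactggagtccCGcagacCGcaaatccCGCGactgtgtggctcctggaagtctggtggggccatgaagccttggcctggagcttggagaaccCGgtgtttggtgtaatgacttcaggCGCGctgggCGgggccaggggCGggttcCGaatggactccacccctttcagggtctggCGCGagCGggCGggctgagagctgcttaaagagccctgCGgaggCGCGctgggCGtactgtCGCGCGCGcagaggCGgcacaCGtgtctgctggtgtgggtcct
Cacna1s: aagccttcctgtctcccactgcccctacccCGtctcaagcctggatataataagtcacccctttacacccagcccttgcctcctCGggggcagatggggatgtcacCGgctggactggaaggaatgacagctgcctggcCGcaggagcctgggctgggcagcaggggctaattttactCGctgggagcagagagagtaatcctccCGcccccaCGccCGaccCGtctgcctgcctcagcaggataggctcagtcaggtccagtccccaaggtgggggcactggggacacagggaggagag

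CpG counts of higher and lower channel genes overlapped. Promoters of the 19 higher members with a sequence held a median of 12 CpGs (range 3 to 48), and those of the 10 lower members 9.5 (range 3 to 34). Members within 2-fold held a median of 13, unmeasured members 9, and all 27025 promoters 7. At least 10 CpGs were found in 52.2% of the 90 member promoters and in 43.9% of all. The RE1 element is bound by the repressor Rest at many neuronal channel genes. Exact matches to its left part TTCAGCACC, any 2 bases and its right part GGACAG were searched on both strands. Sites with other letters or spacing were not counted. Such a match occurred in 0 of 90 member promoters and in 3 of all 27025. It was so rare over all promoters that 0 of 90 says nothing about the members. The left part alone, TTCAGCACC, occurred in 1 member promoter, that of the unmeasured Kcnh6, and in 0.359% of all promoters. The letters GGACAG alone occurred in 26.7% of member promoters and 22.1% of all, and TATAAA in 3.33% and 14.2%. The left part and GGACAG are both contained in the full motif. Elements outside these windows were not searched.

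Different probes of a gene did not always give a difference of the same size. Of 26 channel genes with several measured probes, 19 had differences within 1 log2 unit of each other. In 0 of them were probes at least 2-fold apart in opposite directions. Probes measured on 1 array enter as bounds, which are drawn toward 0 and cannot pass it, so these counts can hide disagreement. Probes not well above background on either array are left out of these counts, among them probes of Cacna1s, Kcnc2, Kcne1, Kcnf1, Kcnip4, Kcnj8 and Scn1a. In 5 genes the measured probes lay over 2 log2 units apart: Scn8a, Cacna1g, Cacna1h, Cacna2d2 and Cacnb4. The Scn8a difference of 4.03 came from a probe for a cDNA clone, and the probe for NM_011323, on chromosome 15 from 101025636 to 101025695 (mm7), had 114 on day 6 and 25.8 on day 0, too dim for a bound above 0. For Cacna1g, a dimmer probe had 267 on day 6 and was not well above background on day 0, with a log2 bound of 1.16 beside 3.32. For Cacna1h, it had 130.5 on day 6 and 105 on day 0, a bound of 0.09 beside 2.82, and 2 further probes were not well above background on either. The Cacna2d2 probe with 16301 on day 6 and 13825 on day 0 gave 0.01, whereas a probe for the same accession on chromosome 9 had 1061 on day 6 and 207 on day 0 and gave 2.14 ± 0.25. Cacnb4 gave 0.06 by its brightest probe on the mean of both arrays, for NM_001037099, and bounds of 1.98 and 3.04 by its probes for NM_146123, which had 471 and 981 on day 6 and 20.5 and 60.7, not well above background, on day 0. The large Cacna1h and Scn8a differences therefore rest on 1 probe each, and Cacnb4 and Cacna2d2 would count as higher by other probes. Among genes whose probes lay closer together, Kcnn2 would count as higher by its other probe (1.05). Cacna1b and Kcnj9 would count as lower by theirs (bounds of -1.06 and -1.24). The first 30 of the 60 bases of each of these probes follow, so that the transcript part each reads can be looked up. They are named by gene and by log2 difference.
Cacna1g (3.32): catcttcaacggaaagcgagaaccattttg
Cacna1g (1.16): ccaaggaccctcaagagaccagaagcagct
Cacna1h (2.82): ccaccagaagttgtaccaggaccaggtcat
Cacna1h (0.09): gagccagacaccccgaacctcctggtcgtg
Cacna2d2 (2.14): gggggagggtgatacattaattaatggctt
Cacna2d2 (0.01): ctaggaggccaaattacccctcccttgctg
Cacnb4 (0.06): caacaacaacaacaaaaaatgcagagtgca
Cacnb4 (1.98): ggattacagagtcagcgaatgagacacagc
Cacnb4 (3.04): tcatctgttgacaatttgccatagtactgc
Scn8a (0.00): ttacgagcctatcacgaccactctgcggcg
Scn8a (4.03): catgtttgacagacatctctgacatacagc

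**Figure D4:**
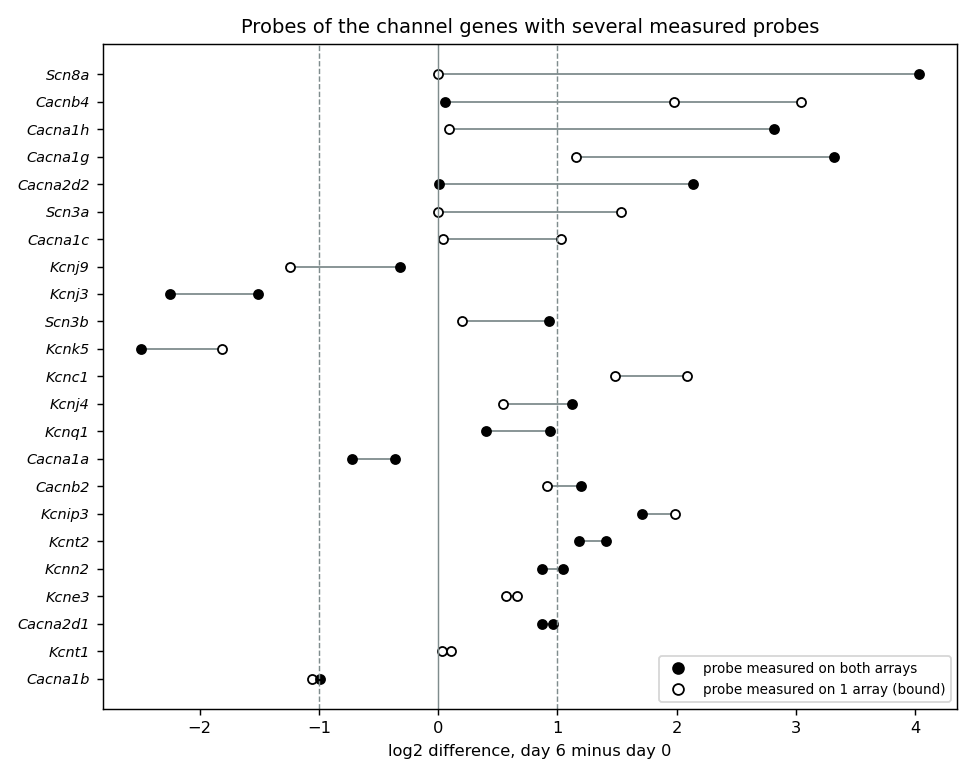
The log2 difference, day 6 minus day 0, of every measured probe of 23 of the 26 channel genes with several measured probes, ordered by the distance between a gene's probes. Filled points were measured on both arrays, open points are bounds, and dashed lines mark 2-fold. Scn8a is at the top, with probes at 0.00 and 4.03.

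Other cation channels and the partners of the channels were followed in a list of 102 genes, of which 70 were measured. Of these, 21 passed 2-fold as higher on day 6 and 15 as lower, with a median of 0.12. For the counts in this paragraph, the shares over all 14966 measured genes were 17.8% higher and 20.1% lower. Proteins that bind the channels stood highest, with 10 of 17 measured genes at least 2-fold higher, 1 lower (Amigo1, -1.07 ± 0.22) and a median of 1.30. Ank3 (ankyrin-G), which anchors sodium channels at the axon initial segment, had 26045 on day 6 and 3695 on day 0 (2.59 ± 0.20), and Fgf11, of the intracellular FGF group that binds sodium channels, had 2523 on day 6 and 276 on day 0 (2.97 ± 0.24). Dpp6, the partner of Kv4 channels beside the KChIPs, had 1704 on day 6 and 338 on day 0 (2.11 ± 0.23). Calcium release and entry genes had 2 of 10 higher and 4 lower, with a median of -0.61. Itpr2 had 4024 on day 6 and 791 on day 0 (2.12 ± 0.21), whereas Itpr3 had 5259 on day 6 and 14604 on day 0 (-1.70 ± 0.20). Likewise, Orai2 had 911 on day 6 and 196 on day 0 (1.99 ± 0.26), and Orai1, the pore of store-operated calcium entry, had 509 on day 6 and 1486 on day 0 (-1.77 ± 0.21). HCN and CNG genes had 1 of 6 higher and 1 lower, TRP and polycystin genes 4 of 15 and 4, and the list of acid-sensing, purinergic and other channels 3 of 13 and 3. The sodium pump genes had 1 of 6 higher and 1 lower. The lower one, Atp1b1, had 8647 on day 6 and 32828 on day 0 (-2.15 ± 0.20). Rest, the repressor of neuronal genes, had 15869 on day 6 and 68676 on day 0, for a log2 difference of -2.34 ± 0.20. Its corepressor genes Rcor1 and Rcor2 stood at 0.03 ± 0.20 and 0.44 ± 0.20.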

How the data were processed

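Total RNA labelled with Cy3 was hybridised to 1-colour Agilent arrays of design 014868, 1 array for each day. The deposited intensity values were made by the authors with Feature Extraction 9.5.3.1, per the file headers, with background subtraction and detrending within each array. The headers name the mm7 build. Both arrays lay on 1 slide and were read in 1 scan, so the effect of position cannot be told apart from that of group. The authors also deposited a table of log2 values with equal distributions in both columns, made by steps that the sources used here do not give.

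Control spots and outlier spots (216 on day 6 and 186 on day 0) were left out, log2 intensities of a probe's spots were averaged, and each array's 75th percentile was subtracted. Saturated spots were kept, and no channel probe was saturated. Where 1 array was not well above background, the bright value was set against the higher of the dim probe's own value and the lowest value well above background (85.2 intensity units on day 6 and 102 on day 0), and a bound past 0 was set to 0. Each gene took its brightest measured probe. Genes were named through the RefSeq GRCm38.p6 table, where every member's array name was a current symbol, and its promoter sequences are of that build. Counts used 2-fold and 4-fold, with no p-value. The steps were tested on simulated data. Normexp used limma 3.58.1 with an offset of 50.

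Named genes were, in each class, the gene of highest mean intensity, up to 3 with the largest differences each way, and a set of well-known subunits. Other members are named to account for the rest, except 6 that are not reported here or drawn singly but enter the counts and medians. The members, lists and rules were chosen with earlier results of these data known. The number of arrays limits the precision.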

Additional observations from a re-analysis of the deposited data

How the results depend on the processing

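No paired analysis was possible because each day has 1 array, and no replicate could be left out. The count of channel genes at least 2-fold higher on day 6 was 25 of 84 (29.8%). It became 16 of 53 (30.2%) over probes that both arrays measured, so the share hardly moved. The shares of all genes were 17.8% and 16.4%. The count at least 2-fold lower was 14 of 84 and became 26 of 121 with no filter on dim probes, where the shares of all genes were 20.1% and 18.4%. At 4-fold, the 12 higher genes became 7 under normexp, 7 without background subtraction, 20 without the filter and 20 with the signal as given in place of the bound. The 5 lower genes became 2 under normexp, 2 without background subtraction and 9 without the filter.

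Class medians moved as follows. With probes measured on both arrays only, the Kv modifiers stood at -1.67, the calcium- or sodium-activated channels at 1.60, the K2P channels at -1.83 and the calcium alpha1 subunits at -0.36. With no filter, the Kv pore-forming genes stood at -0.43, the calcium- or sodium-activated channels at 1.18 and the sodium alpha subunits at 1.79. The signal as given in place of the bound gave 1.18 for the calcium- or sodium-activated channels, 1.23 for calcium alpha1 and 2.87 for sodium alpha. Normexp gave 1.03 for the Kv auxiliary genes and 0.36 for calcium beta. No background subtraction gave 0.96 for the Kv auxiliary genes, -0.72 for the Kv modifiers and 0.33 for calcium beta. The mean of a gene's probes gave 0.00 for calcium alpha1, 0.49 for calcium beta and 0.56 for sodium beta, and the authors' value table gave -0.22 for calcium alpha1. The cause was not tested.

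Of the 39 genes at least 2-fold apart, 30 stayed so in every setting that measured them, 9 fell short in at least 1 setting, and 0 changed sign. Scaling to the median moved the median of all genes to -0.20 log2 units. Dim probes limit what can be said: 37 of 121 genes (30.6%, against 23.1% of all genes) had no probe well above background. That does not show that they were not expressed.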

Other observations

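Several channel genes stood on the array under older names and so fell outside the naming rule. They were looked up after the values of the members had been seen. Scn2a, the sodium channel alpha subunit of immature axons, is listed as Scn2a1 and had 611 intensity units on day 6 and, not well above background, 73.9 on day 0, at least 5.11-fold higher. Kcnk9, a K2P channel of neurons, had 1467 on day 6 and, not well above background, 23.3 on day 0, at least 12.3-fold higher, so it stands apart from the 8 measured K2P members, none of which was 2-fold higher. Kcnk10 had 325 on day 6 and 105 on day 0, at least 2.65-fold higher. With these genes added, the K2P class would hold 2 higher genes beside 3 lower ones. Kcng1 gave a log2 difference of -0.14 ± 0.27, and Cacna2d4 was not well above background on either array.

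Kcnmb4os2, a noncoding gene that carries the name of the opposite strand of Kcnmb4, had 1322 on day 6 and, not well above background, 86.2 on day 0, at least 11.1-fold higher. Kcnmb4 itself was 6.83-fold higher.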
